A study of Mus musculus with 12 samples.

Results

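Neutrophils and renal tubular epithelial cells (TECs) of vehicle-treated mice were compared after renal ischemia-reperfusion injury (IRI), a model of acute kidney injury in which the renal pedicles are clamped for a time and then released. The members are the vehicle libraries alone, 6 of the 12 libraries of the series: 3 of neutrophils (PMN), named here by the numbers in their labels as PMN-544, PMN-546 and PMN-547, and 3 of TECs, numbered 3, 4 and 5. All 6 came from wildtype male C57BL/6J mice that received IRI and physiologic saline in place of glutamine, and cells were taken 24 hours after IRI. The neutrophil libraries are labelled as coming from murine peripheral whole blood, and the labels call the cells sorted without naming the markers. TECs were sorted from kidney tissue as cells negative for CD45 and positive for Prominin-1, so that Ptprc and Prom1, the genes of those surface proteins, are no finding in TECs. No library of uninjured mice enters the comparison, which therefore describes the difference between 2 cell types after IRI and not the response of either to it. The labels do not tie a neutrophil library to a TEC library, and each p-value measures only the spread between the 3 libraries of a group, part of which may be technical.

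Neutrophils are made in the bone marrow, store antimicrobial proteins and proteases in granules, follow chemokines and complement fragments into injured tissue, and carry an oxidase that makes superoxide. The proximal tubule takes back filtered glucose, phosphate, amino acids and organic anions, burns fatty acids, makes glucose, and is the part of the nephron most exposed to ischemia. Neutrophil recruitment and tubular cell death are both features of IRI-induced acute kidney injury.

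The neutrophil libraries held between 20652686 and 21878446 estimated counts over the genes present in both tables, and the TEC libraries between 9258708 and 10223461. After predicted and unnamed genes and sensory receptors were left out, 3.38% to 3.75% of the neutrophil counts and 17.5% to 23.3% of the TEC counts were gone, and 21313 genes remained. Levels are given in CPM, counts divided by the TMM-scaled library size and brought to a common total, and a level of 3 counts corresponds to 0.146 to 0.204 CPM in neutrophils and to 0.295 to 0.341 CPM in TECs. In every sentence with 3 values for a cell type, neutrophil values are in the order PMN-544, PMN-546, PMN-547 and TEC values in the order 3, 4, 5. A log2 difference is neutrophils minus TECs, with its standard error (SE), and adjusted p-values are from edgeR's quasi-likelihood test. CPM are not corrected for gene length, so that levels are compared between libraries and not between genes. The cell types lie in separate tables, with run names of different form, so that cell type and sequencing run cannot be told apart. Genes of a list were therefore counted where the difference was at least 8-fold with an adjusted p below 0.05, called the 8-fold rule below, and smaller differences are given as values with no direction read from them.

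The labels were first set against marker genes, and the libraries fitted their cell types with exceptions that touch several results. The summed level of the 16 neutrophil markers was 86920, 46170 and 87870 CPM in neutrophils and 290.1, 152.2 and 159.7 CPM in TECs, and that of the 20 proximal tubule markers was 1533, 975.8 and 1040 CPM in neutrophils and 16160, 13720 and 14370 CPM in TECs. The neutrophil libraries also carried monocyte and macrophage markers, whose 11 genes summed to 3543, 4472 and 8048 CPM against 54.6 to 84.0 CPM in TECs, and platelet markers, whose 7 genes summed to 558 to 1420 CPM against 8.96 to 32.7 CPM. Library PMN-546 held 2759 CPM of the 10 endothelial markers, where PMN-544 held 138.1 and PMN-547 held 3.85, and 1821 CPM of the 5 podocyte markers, where the other two held 1.43 and 1.77. Library PMN-544 held 1463 CPM of thick ascending limb markers, nearly all from Umod, the gene of uromodulin, which was at 1393, 10.9 and 3.66 CPM in neutrophils and at 2171, 1307 and 1110 CPM in TECs. The 8 distal convoluted and connecting tubule markers summed to 781.4, 362.5 and 265.7 CPM in neutrophils, above the 218.8, 179.7 and 237 CPM in TECs. The 12 markers of T and NK cells summed to at most 19.3 CPM in any neutrophil library and the 8 of B cells to at most 2.82 CPM, against 10.8 to 24.1 CPM in TECs for the latter, with 8 and 6 of them, Cd3e of T cells among these, at 0 in every neutrophil library. Markers of eosinophils, basophils and mast cells summed to 74.0 CPM in PMN-547 and to 0 in the other two neutrophil libraries, and stromal markers to 195.9 CPM in PMN-546 against 30.5 to 62.3 CPM in the other two. In TECs, erythroid markers summed to 1418, 881.7 and 4897 CPM against 26.0 to 47.5 CPM in neutrophils. The TEC libraries also held endothelial markers, at 530.1, 656.3 and 394.1 CPM, and podocyte markers, at 146.5, 142.6 and 86.6 CPM. The neutrophil libraries, although labelled as coming from blood, thus held counts of tubular markers, and PMN-546 of podocyte markers. Where these counts came from was not tested. The part that cells of other types have in the results below was not tested either.

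**Figure D1:**
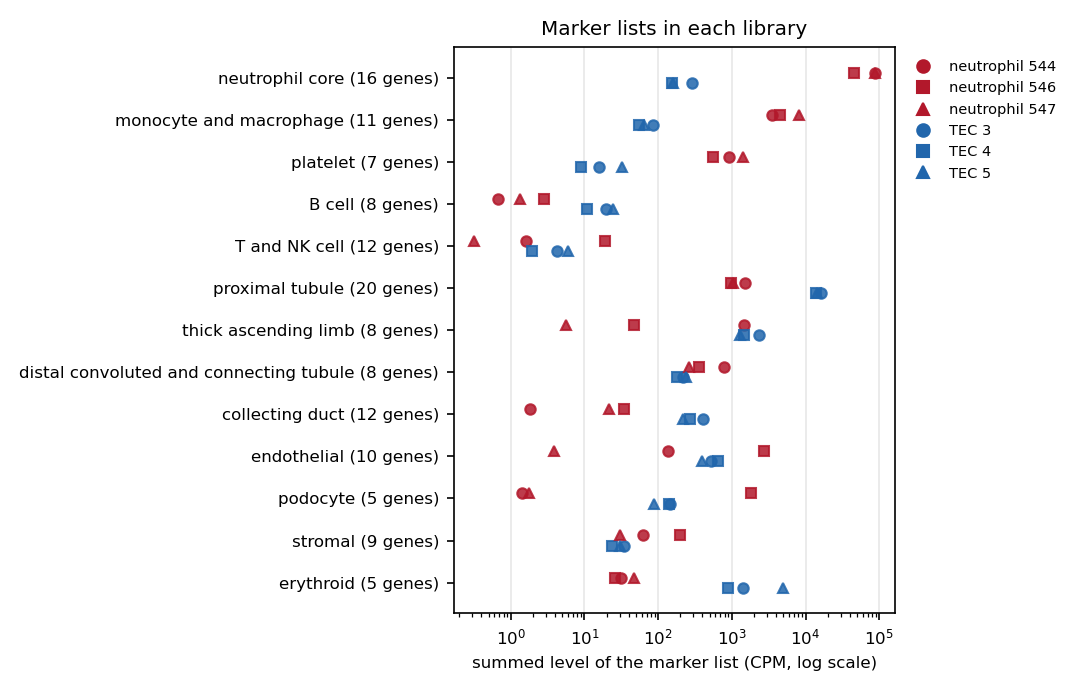
Summed level of each marker list in each library, in CPM on a log axis, with 1 symbol per library (red, neutrophils; blue, TECs). Neutrophil markers lie between 46170 and 87870 CPM in neutrophils and between 152.2 and 290.1 CPM in TECs, and the endothelial and podocyte symbols of neutrophil library PMN-546 stand apart from those of the other two neutrophil libraries.

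Neutrophil libraries also differed more among themselves than TEC libraries did. Pearson's r of log2(CPM + 1) over genes was between 0.567 and 0.605 for pairs of neutrophil libraries and between 0.948 and 0.968 for pairs of TEC libraries. Pairs of a neutrophil and a TEC library had r between 0.432 and 0.503, not far below the neutrophil pairs. These values describe the libraries and carry no test. Of the 12074 genes that passed the filter on low counts, 1863 were at 0 in exactly 2 neutrophil libraries, and only 94 in exactly 2 TEC libraries. A level of at least 100 CPM in a single library with less than 10 CPM in both others was seen for 72 genes in PMN-544, 119 in PMN-546 and 32 in PMN-547, and for none of the tested genes in a TEC library.

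By the 8-fold rule, 909 genes were higher in neutrophils, 7.53% of those tested, and 2733 genes were higher in TECs, 22.6% of those tested. At any size, 4457 genes had an adjusted p below 0.05, 36.9% of those tested. The 2 sets differ in their levels. Of the genes higher in neutrophils, 824 of 909 were at 10 CPM or more in all 3 neutrophil libraries, and 61 were at 0 in every TEC library. Of the genes higher in TECs, 1096 of 2733 reached 10 CPM in all 3 TEC libraries, and 1498 were at 0 in every neutrophil library. All 1498 tested genes at 0 in neutrophils and all 61 at 0 in TECs were called, as they passed the filter only through the other cell type. Where 10 counts were required of every library, 4810 genes were tested, 453 were higher in neutrophils and 273 in TECs, so that the balance of the 909 and 2733 turned. With limma-voom in place of edgeR, 410 genes were higher in neutrophils and 2084 in TECs. The call of a gene at 0 in a whole cell type is thus fixed by the filter, and for such genes a bound against 3 counts per library is given with no p. Genes with 1 to 3 counts in a cell type are also given without one.

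**Figure D2:**
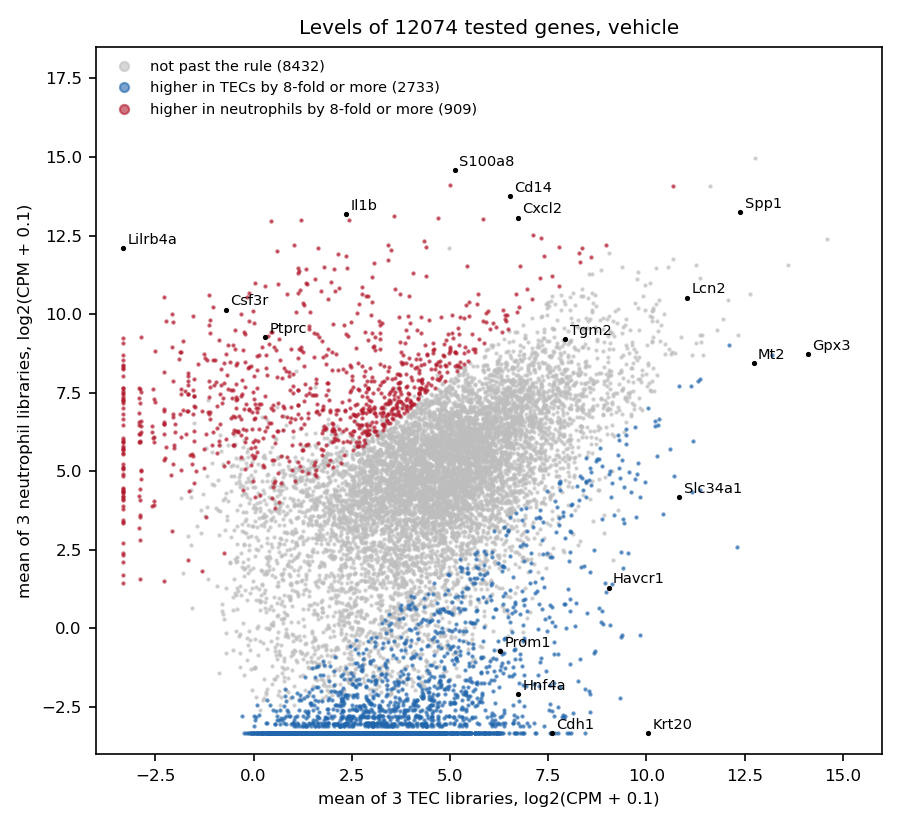
Mean level of each tested gene in TECs (horizontal axis) and neutrophils (vertical axis) as log2(CPM + 0.1), each point 1 gene and the mean of 3 libraries. The 909 genes higher in neutrophils by the 8-fold rule are red, the 2733 higher in TECs blue, all others grey and labelled genes black; the line of blue points along the lower edge is genes at 0 in every neutrophil library.

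All 16 neutrophil markers were higher in neutrophils by the 8-fold rule, with a median log2 difference of 9.50, against -0.41 over all tested genes. S100a8 and S100a9 encode the subunits of calprotectin, which binds calcium and zinc in the neutrophil cytosol. S100a8 was at 25650, 13440 and 34120 CPM in neutrophils and at 74.3, 22.6 and 7.61 CPM in TECs (log2 difference 9.45, SE 1.15, adjusted p = 0.00427), and S100a9 at 21340, 10200 and 21110 CPM in neutrophils and at 70.8, 21.4 and 4.43 CPM in TECs (log2 difference 9.09, SE 1.27, adjusted p = 0.00517). The groups did not overlap for either gene, and TEC library 3 was the highest and 5 the lowest TEC library for both. Csf3r, the receptor for the growth factor G-CSF, was at 1595, 616 and 1188 CPM in neutrophils and at 0.538, 0.886 and 0.114 CPM in TECs (log2 difference 11.07, SE 0.93, adjusted p = 0.00158). Ly6g, the surface protein by which mouse neutrophils are stained, was at 242, 142 and 106 CPM in neutrophils and at 0.861, 0.0984 and 0.114 CPM in TECs (log2 difference 8.80, SE 1.20, adjusted p = 0.00497). Il1r2, a decoy receptor that binds interleukin-1 without signalling, was at 8953, 6798 and 8807 CPM in neutrophils and at 2.58, 3.35 and 0.681 CPM in TECs (log2 difference 11.85, SE 0.79, adjusted p = 0.00105). Cd177, a neutrophil surface glycoprotein, was at 849.9, 139 and 118 CPM in neutrophils and at 0 in every TEC library, at least 1150-fold higher in neutrophils. The mean behind this bound came mostly from PMN-544. Cxcr2, the receptor for CXCL1 and CXCL2, had the smallest difference of the 16 markers. It was at 1531, 497 and 760 CPM in neutrophils and at 88.3, 65.5 and 98.1 CPM in TECs (log2 difference 3.47, SE 0.50, adjusted p = 0.0054), so that the lowest TEC library lay well above the floor for this gene.

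Granule genes fell into those with high levels and those with few or no counts. Of 11 tested members of the granule list, 8 were higher in neutrophils by the 8-fold rule, 72.7% against 7.53% of all tested genes, and none in TECs, although 1 was without TEC library 4 or 5. At 0 in every TEC library was 1 of the 8. Mmp8, neutrophil collagenase, was at 2731, 1123 and 2144 CPM in neutrophils and at 3.44, 0.787 and 0.114 CPM in TECs (log2 difference 10.42, SE 1.36, adjusted p = 0.00489), and Mmp9, gelatinase B, at 779.9, 591 and 696 CPM in neutrophils and at 1.29, 2.07 and 0.454 CPM in TECs (log2 difference 9.06, SE 0.70, adjusted p = 0.00126). Ngp, a protein of secondary granules, was at 1710, 604 and 966 CPM in neutrophils and at 1.83, 0.394 and 0.454 CPM in TECs (log2 difference 10.25, SE 0.98, adjusted p = 0.00215). All 3 genes were above every TEC library in every neutrophil library, with PMN-546 the lowest of the neutrophil libraries. Mpo and Elane, genes of primary granule proteins that are transcribed in bone marrow precursors, had few or no counts in neutrophils. Mpo, myeloperoxidase, was at 0 in every neutrophil library and at 1.29, 0.492 and 1.02 CPM in TECs, and Elane, neutrophil elastase, at 0, 1.51 and 0 CPM in neutrophils and at 0 in every TEC library. Ltf, lactoferrin of secondary granules, was at 0, 2.53 and 43.2 CPM in neutrophils and at 0 in every TEC library. Lcn2, which encodes NGAL and is also made by injured tubules, was at 1903, 869 and 1644 CPM in neutrophils and at 3928, 1640 and 774 CPM in TECs. Its groups overlapped and it did not pass the test (log2 difference -0.52, SE 0.62, adjusted p = 0.607), with TEC library 3 above every neutrophil library.

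The promoters of 2 of these genes are shown because both hold letters bound by PU.1, an ETS-family factor of myeloid cells. Each runs from 250 bases before to 50 after the transcription start in RefSeq on GRCm38.p6. Capitals mark a match, on either strand, to GAGGAAGT (PU.1) or TTNNGCAA (C/EBP factors, which act in granulocyte development), and the matches do not overlap each other. S100a8 lies at chr3:90668821-90669120 on the forward strand, with PU.1 letters on the reverse strand, and Mmp8 at chr9:7558179-7558478 on the forward strand, with PU.1 letters further from the start and C/EBP letters nearer to it, both on the reverse strand.
S100a8: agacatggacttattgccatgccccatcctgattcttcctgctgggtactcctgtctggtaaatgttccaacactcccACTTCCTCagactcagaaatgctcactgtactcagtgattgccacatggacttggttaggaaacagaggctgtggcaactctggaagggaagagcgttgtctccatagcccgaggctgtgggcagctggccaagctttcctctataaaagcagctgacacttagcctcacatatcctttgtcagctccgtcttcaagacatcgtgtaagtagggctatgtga
Mmp8: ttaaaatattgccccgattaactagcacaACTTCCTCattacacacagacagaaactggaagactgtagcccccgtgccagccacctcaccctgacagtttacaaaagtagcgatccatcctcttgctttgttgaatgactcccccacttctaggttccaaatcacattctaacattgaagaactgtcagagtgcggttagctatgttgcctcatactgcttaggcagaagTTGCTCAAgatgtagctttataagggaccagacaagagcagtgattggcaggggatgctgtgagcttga
The PU.1 letters were present in 63 of the 698 genes higher in neutrophils that have such a window, which is 9.03%, in 2.24% of the 2054 higher in TECs and in 3.69% of all 27025 genes with a window. The C/EBP letters were present in 13.8%, 10.9% and 12.2% of the same sets. Over tested genes with a window, the shares were 3.77% for PU.1 letters and 10.2% for C/EBP letters. These are descriptions of a window and not of binding. Spi1, which encodes PU.1, was itself at 259.9, 652 and 943 CPM in neutrophils and at 0, 0 and 0.114 CPM in TECs (1 count over the 3 TEC libraries, 17800-fold higher in neutrophils with a counting interval of 3190 to 703000). Such intervals are at 95% and cover counting error only. Cebpb, a C/EBP factor of many tissues, was at 53.1, 45.7 and 91 CPM in neutrophils and at 206, 320.2 and 399 CPM in TECs (log2 difference -2.29, SE 0.44, adjusted p = 0.00835), less than 8-fold apart. Among 11 tested myeloid transcription factors, 3 were higher in neutrophils by the 8-fold rule, 27.3% against 7.53% of all tested genes. None of them was higher in TECs by that rule, and their median log2 difference was 2.24.

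Receptors by which neutrophils sense chemoattractants, microbes and antibodies were higher in neutrophils almost throughout. The 8-fold rule was met by 10 of 11 tested chemoattractant receptors, 12 of 14 pattern recognition receptors and 12 of 14 Fc receptors and their kinases, which is 90.9%, 85.7% and 85.7% against 7.53% of all tested genes, and none of these genes was higher in TECs. At 0 in every TEC library, and called through the filter alone, were 1 pattern recognition receptor and 2 genes of the Fc receptor list. C5ar1, the receptor for the complement fragment C5a, was at 1869, 1585 and 2240 CPM in neutrophils and at 2.37, 0.886 and 0.114 CPM in TECs (log2 difference 10.71, SE 1.14, adjusted p = 0.0029). Fpr1, which senses formylated peptides of bacteria and mitochondria, was at 947, 491 and 710.4 CPM in neutrophils and at 0.215, 0.295 and 1.36 CPM in TECs (log2 difference 10.16, SE 0.96, adjusted p = 0.00205). Ccr1, a receptor for CCL3 and related chemokines, was at 1052, 1026 and 977 CPM in neutrophils and at 0.323, 1.77 and 0 CPM in TECs (log2 difference 10.47, SE 1.41, adjusted p = 0.00494), and its 3 neutrophil libraries lay close together. Cd14, the co-receptor for lipopolysaccharide that monocytes also carry, was at 17640, 10190 and 13310 CPM in neutrophils and at 123, 106 and 48.2 CPM in TECs (log2 difference 7.21, SE 0.51, adjusted p = 0.00112). Lilrb4a, an inhibitory receptor of myeloid cells, was at 6177, 3121 and 3840 CPM in neutrophils and at 0 in every TEC library, at least 13700-fold higher in neutrophils.

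Adhesion and movement genes gave similar counts. Of 13 tested adhesion molecules, 9 were higher in neutrophils by the 8-fold rule, 69.2% against 7.53% of all tested genes, and none in TECs, although 1 was without PMN-546. Itgam, the CD11b subunit of Mac-1, was at 2615, 994 and 1282 CPM in neutrophils and at 3.34, 1.67 and 1.25 CPM in TECs (log2 difference 9.60, SE 0.74, adjusted p = 0.00126), and Itgal, the CD11a subunit of LFA-1, at 256, 115 and 114 CPM in neutrophils and at 0.969, 0.492 and 0 CPM in TECs (log2 difference 8.34, SE 1.42, adjusted p = 0.00647). Selplg, the P-selectin ligand PSGL-1, was at 1390, 474 and 630.2 CPM in neutrophils and at 2.58, 3.15 and 6.24 CPM in TECs (log2 difference 7.70, SE 0.72, adjusted p = 0.00198). These are the molecules by which neutrophils roll on and hold to vessel walls, and no TEC library reached the lowest neutrophil library for any of them. Among 20 tested genes of the actin machinery, 13 were higher in neutrophils by the 8-fold rule, which is 65%, and none in TECs. Coro1a, a leukocyte actin regulator, was at 1687, 795 and 2006 CPM in neutrophils and at 2.15, 0.197 and 0 CPM in TECs (log2 difference 10.88, SE 1.64, adjusted p = 0.00557). Actb and Cfl1 of the same list were less than 8-fold apart, with log2 differences of 2.45 and 2.54 (adjusted p = 0.00306 and adjusted p = 0.00205 in turn). The median log2 difference of the list was 4.26.

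Cytokine and chemokine transcripts were mainly on the neutrophil side. Of 17 tested genes of interleukin-1, TNF and the feedback of NF-kB, 14 were higher in neutrophils by the 8-fold rule, 82.4% against 7.53% of all tested genes, with a median log2 difference of 6.78. Il1b was at 10810, 6256 and 10610 CPM in neutrophils and at 11.6, 2.17 and 1.25 CPM in TECs (log2 difference 10.84, SE 1.21, adjusted p = 0.0034). Tnf was at 1168, 343 and 511 CPM in neutrophils and at 5.81, 1.97 and 0.568 CPM in TECs (log2 difference 7.91, SE 1.14, adjusted p = 0.00535), with PMN-544 the highest library. Il10, a cytokine that dampens inflammation, was at 48.8, 55.7 and 39.6 CPM in neutrophils and at 1.18, 0.0984 and 0 CPM in TECs (log2 difference 6.78, SE 1.82, adjusted p = 0.0284). Among 15 tested chemokines, 9 were higher in neutrophils by the 8-fold rule and 1 in TECs, 60% and 6.67% against 7.53% and 22.6% of all tested genes. Without any one of the neutrophil libraries, 2 were higher in TECs. Cxcl2, a CXCR2 ligand, was at 10970, 5849 and 9041 CPM in neutrophils and at 99.6, 66.4 and 153 CPM in TECs (log2 difference 6.34, SE 0.47, adjusted p = 0.00119). Cxcl1, another CXCR2 ligand, was at 256, 131 and 289 CPM in neutrophils and at 38.2, 60.6 and 71.1 CPM in TECs and differed by less than 8-fold (log2 difference 1.99, SE 0.47, adjusted p = 0.0173), its groups not overlapping. Ccl3 was at 2609, 1436 and 2130 CPM in neutrophils and at 7.21, 2.46 and 1.82 CPM in TECs (log2 difference 9.07, SE 0.78, adjusted p = 0.00164). Cxcl12, which binds CXCR4 and holds neutrophils in the marrow, was the chemokine higher in TECs, at 0, 0 and 0.0631 CPM in neutrophils and at 2.58, 5.51 and 6.81 CPM in TECs (1 count over the 3 neutrophil libraries, 253-fold higher in TECs with a counting interval of 44.7 to 10100). Without PMN-547, which held that count, Cxcl12 was at least 28.4-fold higher in TECs, a bound against 3 counts per library. The partner receptor Cxcr4 was at 159, 72.9 and 76.7 CPM in neutrophils and at 2.8, 2.07 and 0.681 CPM in TECs (log2 difference 5.79, SE 0.88, adjusted p = 0.00559).

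The NADPH oxidases make superoxide, in phagocytes and, in another form, in kidney epithelium. Of 7 tested genes, 4 were higher in neutrophils by the 8-fold rule and 1, Nox4, in TECs, 57.1% and 14.3% against 7.53% and 22.6% of all tested genes, the latter a call lost without TEC library 4 or 5. Ncf1, which encodes the p47phox subunit of the neutrophil oxidase, was at 818, 668 and 1117 CPM in neutrophils and at 0.431, 0 and 0 CPM in TECs (log2 difference 12.48, SE 1.32, adjusted p = 0.00289). Nox4, the catalytic subunit found in kidney epithelium, was at 1.29, 7.88 and 3.28 CPM in neutrophils and at 50.2, 73.7 and 98.3 CPM in TECs (log2 difference -4.15, SE 0.93, adjusted p = 0.0145). Cyba, the membrane subunit shared by several oxidases, was at 1291, 1342 and 2064 CPM in neutrophils and at 353, 356 and 543.5 CPM in TECs, a smaller difference (log2 difference 1.91, SE 0.31, adjusted p = 0.00622).

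Markers of monocytes and macrophages moved with these genes. Of 11 tested, 10 were higher in neutrophils by the 8-fold rule, 90.9% against 7.53% of all tested genes, with a median log2 difference of 8.16. C1qa, a chain of complement C1q made mainly by macrophages, was at 390.2, 543 and 1489 CPM in neutrophils and at 9.9, 2.07 and 2.5 CPM in TECs (log2 difference 7.38, SE 1.03, adjusted p = 0.00519), and Csf1r, the receptor for the macrophage growth factor, at 622, 281 and 510.3 CPM in neutrophils and at 25.4, 18.6 and 28.5 CPM in TECs (log2 difference 4.29, SE 0.44, adjusted p = 0.00265). Library PMN-547 was the highest of the 3 in the sum of this list. Genes of antigen presentation, which monocytes and macrophages also carry, were partly higher. Cd74, the invariant chain, was at 5646, 6863 and 12170 CPM in neutrophils and at 2.26, 3.54 and 9.99 CPM in TECs (log2 difference 10.61, SE 0.89, adjusted p = 0.00158), and of 15 tested presentation genes 7 met the 8-fold rule in neutrophils, which is 46.7%, and none in TECs. In these bulk samples a gene carried by some cells of another type cannot be told apart from a lower level in all cells. Of 17 tested interferon-stimulated genes, 6 were higher in neutrophils by the 8-fold rule and 2 in TECs, 35.3% and 11.8% against 7.53% and 22.6% of all tested genes. The count in TECs was 3 without PMN-546 and 1 without PMN-544 or any one TEC library. Ifitm6 was on the neutrophil side, at 1980, 704 and 1279 CPM in neutrophils and at 3.77, 2.85 and 0.227 CPM in TECs (log2 difference 9.17, SE 1.19, adjusted p = 0.00485), and Oasl1 and Ifit2 on the TEC side, both low. Oasl1 was at 0 in every neutrophil library and at 2.58, 8.76 and 7.72 CPM in TECs, at least 35.3-fold higher, and Ifit2 at 0, 0.195 and 0 CPM in neutrophils and at 1.29, 1.18 and 1.48 CPM in TECs (log2 difference -4.05, SE 1.19, adjusted p = 0.0397). Without PMN-546, the only neutrophil library with counts of Ifit2, this gene was at least 6.69-fold higher in TECs, a bound below 8-fold. In the glutamine libraries the log2 difference of Ifit2 was 2.80, of the opposite sign.

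Tubular genes gave the reverse picture. Of 19 tested proximal tubule markers, 11 were higher in TECs by the 8-fold rule, 57.9% against 22.6% of all genes tested. Of 33 tested proximal tubule transporters 18 were, which is 54.5%. At 0 in every neutrophil library were 1 of the 11 and 5 of the 18. No member of either list was higher in neutrophils by that rule. Without PMN-547, 2 of the markers were, and 1 was without TEC library 3, with DESeq2 or in the glutamine libraries. Of the transporters, 1 was without PMN-544 or with DESeq2. At any size, 1 marker had an adjusted p below 0.05 and was higher in neutrophils. A further 7 markers and 15 transporters passed in neither direction. Kap, an androgen-regulated protein of the mouse proximal tubule, was at 546.3, 229.8 and 461 CPM in neutrophils and at 11330, 9342 and 7455 CPM in TECs (log2 difference -4.51, SE 0.41, adjusted p = 0.00187), above the floor in every neutrophil library. Slc34a1, the sodium-phosphate cotransporter, was at 8.79, 24.2 and 20.7 CPM in neutrophils and at 1438, 1427 and 2645 CPM in TECs (log2 difference -6.68, SE 0.59, adjusted p = 0.00168). Slc22a6, the organic anion transporter OAT1, was at 10.8, 7.5 and 6.94 CPM in neutrophils and at 295, 219.8 and 289 CPM in TECs (log2 difference -4.99, SE 0.42, adjusted p = 0.00156), and Slc22a8, the related OAT3, at 0.0681, 0.146 and 1.01 CPM in neutrophils and at 329, 297 and 319.5 CPM in TECs (log2 difference -9.57, SE 1.22, adjusted p = 0.00467). Miox, which starts the breakdown of inositol, was at 22.8, 3.36 and 10.3 CPM in neutrophils and at 499.9, 425 and 802 CPM in TECs (log2 difference -5.57, SE 0.83, adjusted p = 0.00554). The groups did not overlap for any of these 5 genes, and the highest neutrophil library differed from gene to gene. Prom1, the sort marker, was at 0.409, 0.681 and 0.442 CPM in neutrophils and at 70.5, 77.1 and 85.2 CPM in TECs, and Ptprc, the gene of CD45, at 766, 338 and 754 CPM in neutrophils and at 1.61, 1.67 and 0.114 CPM in TECs.

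Markers of other nephron segments were also found in the sorted TECs. Of 10 tested collecting duct markers, 8 were higher in TECs by the 8-fold rule, and of 7 thick ascending limb markers 4 were, which is 80% and 57.1% against 22.6% of all tested genes. Of these, 4 of the 8 and 2 of the 4 were at 0 in every neutrophil library and called through the filter alone. Of 8 distal convoluted and connecting tubule markers, 2 were, 25% against 22.6% of all tested genes, with 1 of the 2 at 0 in every neutrophil library and a median log2 difference of 0.11. Sgms2, a sphingomyelin synthase on that list, was at 312, 356 and 257 CPM in neutrophils and at 51.6, 70.1 and 133 CPM in TECs, less than 8-fold apart (log2 difference 1.86, SE 0.44, adjusted p = 0.0184). Umod, whose values are given above, did not pass (log2 difference -1.71, SE 1.92, adjusted p = 0.583), its level in neutrophil library PMN-544 lying within the TEC range. Slc12a3, the sodium-chloride cotransporter of the distal convoluted tubule, was at 262, 0.0974 and 6.06 CPM in neutrophils and at 98.7, 41 and 47.9 CPM in TECs and did not pass either (log2 difference 0.52, SE 1.99, adjusted p = 0.889), with PMN-544 alone above the TECs and a log2 difference of -4.30 without that library. None of the 10 endothelial and 5 podocyte markers met the 8-fold rule. Of 7 tested stromal markers, 3 were higher in TECs by that rule, 42.9% against 22.6% of all tested genes. All 3 were at 0 in every neutrophil library and called through the filter alone. No stromal marker passed as higher in neutrophils, although the highest log2 difference of that list was 5.94. Without library PMN-546, 6 endothelial and 4 podocyte markers were higher in TECs by that rule. Kdr, the VEGF receptor of endothelium, was at 0, 661 and 0 CPM in neutrophils and at 52, 75.5 and 41.7 CPM in TECs (log2 difference 1.97, SE 2.82, adjusted p = 0.68). Library PMN-546 carried the whole neutrophil level of Kdr, which had no count in the other two. Without PMN-546 it was at least 286-fold higher in TECs, a bound against 3 counts per library.

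Transcription factors that set epithelial identity were counted in 10 of 16 cases as higher in TECs, 62.5% against 22.6% of all tested genes, and in none as higher in neutrophils. Of the 10, 6 were at 0 in every neutrophil library and called through the filter alone. Hnf4a, a nuclear receptor that drives proximal tubule genes, was at 0.272, 0 and 0.126 CPM in neutrophils and at 112, 102 and 106 CPM in TECs (log2 difference -9.59, SE 1.43, adjusted p = 0.00554). Tfcp2l1, a factor of the distal nephron and collecting duct, was at 0, 0.0487 and 0 CPM in neutrophils and at 155, 172 and 175 CPM in TECs (1 count over the 3 neutrophil libraries, 8530-fold higher in TECs with a counting interval of 1530 to 337000). Without PMN-546, which held that count, Tfcp2l1 was at least 849-fold higher in TECs. Pax8, which all tubular cells use, was at 157, 0 and 1.51 CPM in neutrophils and at 114, 97.6 and 109 CPM in TECs and did not pass (log2 difference -1.01, SE 2.21, adjusted p = 0.794), with PMN-544 above every TEC library and PMN-546 and PMN-547 far below all of them. The letters CAAAGTCCA, bound by HNF4, were searched on both strands. Among genes with a promoter window, 0.779% of the 2054 higher in TECs and 1.15% of the 698 higher in neutrophils held them. The share was 0.555% over all genes with a window and 0.57% over tested genes with one.

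Junction proteins and keratins hold epithelial sheets together. Of 24 tested, 16 were higher in TECs by the 8-fold rule, 66.7% against 22.6% of all tested genes, and none in neutrophils. Of the 16, 11 were at 0 in every neutrophil library and called through the filter alone. The list had a median log2 difference of -7.79, or -5.83 with genes at 0 in neutrophils set to their bounds. Krt20, a keratin of the injured tubule, was at 0 in every neutrophil library and at 567, 1256 and 1343 CPM in TECs, at least 5870-fold higher in TECs. Cdh1, E-cadherin, was at 0 in every neutrophil library and at 156, 204 and 219 CPM in TECs, at least 1070-fold higher in TECs, and Cldn4, a tight junction claudin, at 0 in every neutrophil library and at 197, 96.9 and 265 CPM in TECs, at least 1040-fold higher. Library 3 had the lowest TEC level of Krt20.

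Markers of tubular injury passed in few cases. Of 16 tested, 1 was higher in neutrophils and 1, Krt20, in TECs by the 8-fold rule, 6.25% each against 7.53% and 22.6% of all tested genes. Havcr1, which encodes KIM-1, was at 0, 0 and 7.07 CPM in neutrophils and at 865, 594 and 118 CPM in TECs. Its groups did not overlap, but it missed the threshold (log2 difference -7.80, SE 2.53, adjusted p = 0.0551), and its TEC libraries spanned a wide range. PMN-547 alone of the neutrophil libraries held counts of it, and without that library it was at least 3000-fold higher in TECs. Its adjusted p ran from 0.00441 to 0.134 over the alternatives and was 0.00713 with DESeq2 and 0.0169 with limma-voom. Vcam1, an adhesion molecule of failed tubular repair that myeloid cells can also carry, was at 306, 301 and 537 CPM in neutrophils and at 17.4, 26.7 and 12.3 CPM in TECs and was the one called in neutrophils (log2 difference 4.34, SE 0.49, adjusted p = 0.00354). Spp1, osteopontin, was at 26870, 1265 and 1285 CPM in neutrophils and at 7211, 6948 and 1988 CPM in TECs and did not pass (log2 difference 0.87, SE 1.28, adjusted p = 0.689), with PMN-544 far above the other neutrophil libraries and a log2 difference of -2.04 without it. The cell cycle arrest markers Timp2 and Igfbp7 did not pass. Timp2 was at 0, 65.1 and 0.0631 CPM in neutrophils and at 38, 49.8 and 56.5 CPM in TECs (log2 difference -1.15, SE 2.40, adjusted p = 0.784), and Igfbp7 at 54.5, 138 and 6 CPM in neutrophils and at 434, 446 and 386 CPM in TECs (log2 difference -2.67, SE 1.01, adjusted p = 0.09). Without library PMN-546, 3 injury markers were higher in TECs by the 8-fold rule, and without PMN-544 or PMN-547, 2 were.

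**Figure D3:**
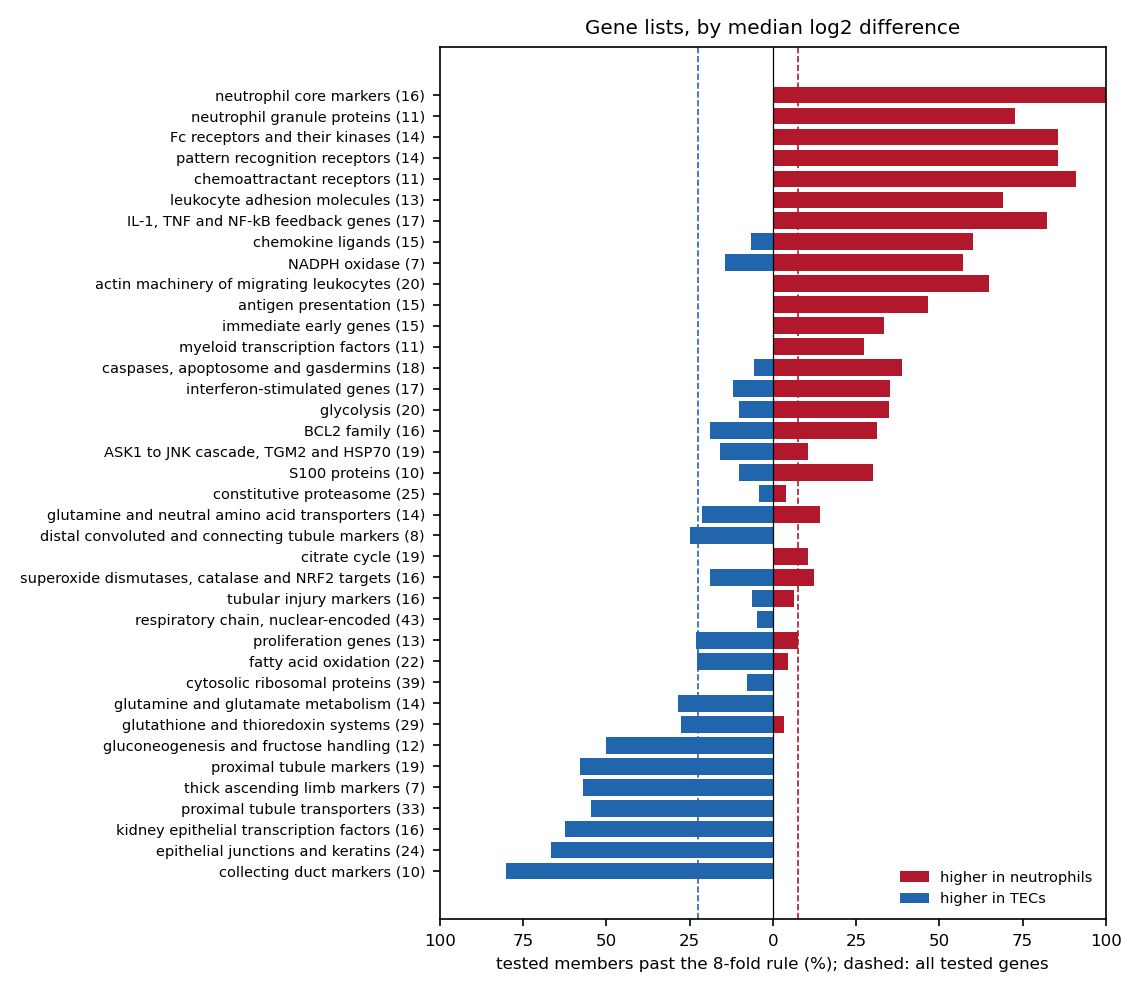
Percent of tested members of each list drawn, higher by the 8-fold rule in neutrophils (red, to the right) or TECs (blue, to the left). The number tested is in parentheses, and lists are ordered by their median log2 difference. Lists of markers of cells other than neutrophils and tubular cells, such as monocytes and macrophages, are not drawn. Dashed lines mark the shares over all tested genes, 7.53% and 22.6%, and the neutrophil marker bar reaches 100% while that of collecting duct markers reaches 80% on the TEC side.

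The kidney cortex makes glucose and neutrophils mainly ferment it. No gluconeogenesis and fructose gene was higher in neutrophils, and 6 of 12 tested were higher in TECs by the 8-fold rule, 50% against 22.6% of all tested genes, with 2 of the 6 at 0 in every neutrophil library. Pck1, the rate-limiting enzyme of gluconeogenesis, was at 2.66, 33.4 and 9.97 CPM in neutrophils and at 367, 328 and 126 CPM in TECs (log2 difference -4.15, SE 1.05, adjusted p = 0.0226). Of 20 tested glycolysis genes, 7 were higher in neutrophils and 2 in TECs by that rule, 35% and 10% against 7.53% and 22.6% of all tested genes. At 0 in every neutrophil library was 1 of the 2. One of the 7, Eno1, fell below 8-fold, to a log2 ratio of 1.38, when summed with its near-identical copy. Pkm, pyruvate kinase of most non-hepatic tissues, was at 2970, 2848 and 3864 CPM in neutrophils and at 346, 314 and 296 CPM in TECs (log2 difference 3.34, SE 0.22, adjusted p = 0.00104), and Ldha, lactate dehydrogenase A, at 1201, 767 and 1263 CPM in neutrophils and at 400.4, 381 and 398 CPM in TECs (log2 difference 1.45, SE 0.26, adjusted p = 0.00687). Ldhb, the B subunit, went the other way, at 144, 60.2 and 52.2 CPM in neutrophils and at 814, 703 and 983 CPM in TECs (log2 difference -3.29, SE 0.49, adjusted p = 0.0055). Gapdh was at 2697, 1788 and 2365 CPM in neutrophils and at 2323, 2612 and 2977 CPM in TECs and did not pass (log2 difference -0.21, SE 0.22, adjusted p = 0.56).

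Few nuclear-encoded genes of the respiratory chain met the 8-fold rule. Of 43 tested, 2 were higher in TECs by the 8-fold rule, 4.65% against 22.6% of all tested genes, with a median log2 difference of -0.80. Without PMN-544 or PMN-546, 1 was. None of the 43 was at 0 in every neutrophil library, whereas 1498 of the 2733 genes behind the 22.6% were. At any size, 15 had an adjusted p below 0.05 and were higher in TECs, and 1 in neutrophils. Over all 12074 tested genes, these counts were 2978 and 1479. The summed level of the list was 7186 to 9704 CPM in neutrophils and 17240 to 20560 CPM in TECs. Cox8a, a subunit of cytochrome c oxidase, was at 346, 302 and 405 CPM in neutrophils and at 963, 928 and 1251 CPM in TECs (log2 difference -1.58, SE 0.24, adjusted p = 0.00575). Of 22 tested genes of fatty acid oxidation, 5 were higher in TECs and 1 in neutrophils by the 8-fold rule, and the 22.7% in TECs lay at the 22.6% of all tested genes. At 0 in every neutrophil library, and called through the filter alone, were 2 of the 5. Acadvl, the very-long-chain acyl-CoA dehydrogenase, was the one higher in neutrophils, at 112, 270.2 and 129.8 CPM in neutrophils and at 2.26, 2.66 and 3.18 CPM in TECs (log2 difference 5.98, SE 0.62, adjusted p = 0.00268). Without library PMN-546 the count in TECs was 8, and without TEC library 3 or 4 it was 3.

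Genes of glutamine handling are of interest because the series tests glutamine, although the mice here received saline. Of 14 tested genes of glutamine and glutamate metabolism, 4 were higher in TECs by the 8-fold rule, 28.6% against 22.6% of all tested genes, with 2 of the 4 at 0 in every neutrophil library, and 2 were without TEC library 3 or 4. Glul, glutamine synthetase, was at 255, 237 and 452 CPM in neutrophils and at 1030, 1273 and 1143 CPM in TECs (log2 difference -1.87, SE 0.32, adjusted p = 0.00657), and Glud1, glutamate dehydrogenase, at 204, 184 and 119 CPM in neutrophils and at 390.1, 344 and 332 CPM in TECs (log2 difference -1.07, SE 0.31, adjusted p = 0.0368). Asns, asparagine synthetase, was at 0 in every neutrophil library and at 29.3, 17.2 and 21.8 CPM in TECs, at least 127-fold higher in TECs. Oat, ornithine aminotransferase, was at 206, 188 and 212 CPM in neutrophils and at 84.5, 67.9 and 65.2 CPM in TECs (log2 difference 1.48, SE 0.32, adjusted p = 0.0127). Among 14 tested transporters of glutamine and other neutral amino acids, 2 were higher in neutrophils and 3 in TECs by the 8-fold rule, 14.3% and 21.4% against 7.53% and 22.6% of all tested genes, and 1 and 1 without any one TEC library. Slc7a11, the cystine-glutamate exchanger, was at 749, 365 and 742 CPM in neutrophils and at 10.7, 20.5 and 14.5 CPM in TECs (log2 difference 5.34, SE 0.49, adjusted p = 0.00192), with all neutrophil libraries above all TEC libraries.

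Most antioxidant genes tested did not meet the 8-fold rule. Of 29 tested genes of the glutathione and thioredoxin systems, 8 were higher in TECs and 1 in neutrophils by the 8-fold rule, 27.6% and 3.45% against 22.6% and 7.53% of all tested genes. The gene on the neutrophil side was Gpx4, which fell below 8-fold, to a log2 ratio of -0.81, when summed with its near-identical pseudogene, and no gene of the list then met the rule in neutrophils. Of the 8 in TECs, 1 was at 0 in every neutrophil library, and without any one TEC library the count in TECs was 5. Gpx3, the secreted glutathione peroxidase that kidney makes for plasma, was at 472, 219 and 579.8 CPM in neutrophils and at 18370, 13150 and 21430 CPM in TECs (log2 difference -5.38, SE 0.47, adjusted p = 0.00167). Gclc, the catalytic subunit of the enzyme that limits glutathione synthesis, was at 118, 8.81 and 7.07 CPM in neutrophils and at 1178, 1459 and 1050 CPM in TECs (log2 difference -4.79, SE 1.26, adjusted p = 0.0268). Srxn1, sulfiredoxin, which repairs peroxiredoxins, was at 0.409, 39.6 and 14.5 CPM in neutrophils and at 788, 1099 and 853 CPM in TECs (log2 difference -5.65, SE 1.46, adjusted p = 0.025), with PMN-544 far below PMN-546 among neutrophils. Glrx, glutaredoxin, was at 346, 396 and 254 CPM in neutrophils and at 973, 1254 and 933 CPM in TECs (log2 difference -1.66, SE 0.27, adjusted p = 0.00615), less than 8-fold apart. Txn1, thioredoxin, Gsr, glutathione reductase, and Mgst1, a microsomal glutathione transferase, did not pass. Txn1 was at 400, 523 and 769 CPM in neutrophils and at 476, 459 and 358 CPM in TECs (log2 difference 0.39, SE 0.32, adjusted p = 0.43), Gsr at 1199, 592 and 734 CPM in neutrophils and at 512, 761 and 549 CPM in TECs (log2 difference 0.47, SE 0.34, adjusted p = 0.37), and Mgst1 at 441, 166 and 379.6 CPM in neutrophils and at 282, 224 and 143 CPM in TECs (log2 difference 0.60, SE 0.47, adjusted p = 0.402).

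Among superoxide dismutases, catalase and targets of the factor NRF2, 2 of 16 tested, Hmox1 and Ftl1, were higher in neutrophils and 3 in TECs by the 8-fold rule, 12.5% and 18.8% against 7.53% and 22.6% of all tested genes. Ftl1 fell below 8-fold, to a log2 ratio of 1.72, when summed with its copies. Hmox1, heme oxygenase, was at 1974, 793 and 1975 CPM in neutrophils and at 58.4, 100.1 and 152 CPM in TECs (log2 difference 3.94, SE 0.55, adjusted p = 0.00519). Sod3, the extracellular superoxide dismutase, was at 0 in every neutrophil library and at 201, 168 and 246 CPM in TECs, at least 1140-fold higher in TECs. Sod2, the mitochondrial enzyme, was at 508, 524 and 441 CPM in neutrophils and at 174, 193 and 255 CPM in TECs (log2 difference 1.24, SE 0.27, adjusted p = 0.012) and Sod1, the cytosolic one, at 494, 496 and 584 CPM in neutrophils and at 1505, 1369 and 1374 CPM in TECs (log2 difference -1.43, SE 0.20, adjusted p = 0.00501), both less than 8-fold apart. Outside this list, Mt2, a metal-binding metallothionein, was at 219, 343 and 489.8 CPM in neutrophils and at 6168, 6074 and 8152 CPM in TECs (log2 difference -4.28, SE 0.37, adjusted p = 0.00165).

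Proteins of the BCL2 family decide whether a cell's mitochondria release the signals of apoptosis. Of 16 tested members of the BCL2 family, 5 were higher in neutrophils and 3 in TECs by the 8-fold rule, 31.2% and 18.8% against 7.53% and 22.6% of all tested genes. At 0 in every library of the other cell type were 1 of the 5 and 1 of the 3. Without library PMN-546 the counts were 5 and 5, and without TEC library 4 or 5 they were 5 and 1. Bcl2a1b, a survival gene of activated neutrophils, was at 522, 167 and 566 CPM in neutrophils and at 0 in every TEC library, at least 1310-fold higher in neutrophils. Bax, a pore-forming killer, was at 103, 138 and 297 CPM in neutrophils and at 21.6, 18.6 and 4.88 CPM in TECs (log2 difference 3.58, SE 0.78, adjusted p = 0.0133), and Mcl1, on whose protein neutrophil survival depends, at 1237, 662 and 1435 CPM in neutrophils and at 230, 287 and 286 CPM in TECs (log2 difference 2.05, SE 0.35, adjusted p = 0.00644). Bcl2 was at 0, 0.195 and 0 CPM in neutrophils and at 19.5, 14 and 15.6 CPM in TECs (log2 difference -7.72, SE 1.88, adjusted p = 0.0199), higher in TECs. Without PMN-546, the only neutrophil library with counts of Bcl2, it was at least 83-fold higher in TECs. Of 18 tested caspases and related genes, 7 were higher in neutrophils and 1 in TECs, 38.9% and 5.56% against 7.53% and 22.6% of all tested genes. The counts were 7 and 3 without PMN-546, 8 and 2 without PMN-547, 4 and 1 without TEC library 3, and 4 and 2 without TEC library 5. Casp1, the caspase that cleaves pro-interleukin-1β, was at 2.32, 158 and 61.5 CPM in neutrophils and at 0.108, 0.886 and 0.795 CPM in TECs (log2 difference 6.93, SE 1.83, adjusted p = 0.0267).

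The kinase ASK1, transglutaminase 2 and HSP70, which the study follows in tubular cell death, were also measured in both cell types. Map3k5, which encodes ASK1, was at 78.6, 13.6 and 34.8 CPM in neutrophils and at 50.7, 57.8 and 74.1 CPM in TECs and did not pass (log2 difference -0.52, SE 0.75, adjusted p = 0.678). Tgm2, transglutaminase 2, was at 764, 648 and 351 CPM in neutrophils and at 239.5, 254 and 242 CPM in TECs, less than 8-fold apart (log2 difference 1.26, SE 0.34, adjusted p = 0.0295). Hspa1a, an inducible HSP70, was at 2362, 1264 and 1725 CPM in neutrophils and at 109, 56.8 and 207 CPM in TECs (log2 difference 3.85, SE 0.57, adjusted p = 0.0055), and Hspa1b, its near-identical neighbour, at 67.9, 14.7 and 144 CPM in neutrophils and at 20.8, 12.9 and 36.1 CPM in TECs (log2 difference 1.70, SE 0.94, adjusted p = 0.234). Map2k7, a kinase between ASK1 and JNK, was at 0 in every neutrophil library and at 31.1, 34 and 33.6 CPM in TECs, at least 183-fold higher in TECs. Mapk12, the p38γ kinase, was at 10.3, 10.6 and 12.5 CPM in neutrophils and at 371, 593 and 451 CPM in TECs (log2 difference -5.40, SE 0.36, adjusted p = 0.00104). Ywhaz, a 14-3-3 protein that binds ASK1 and BAD, was at 1433, 473 and 508 CPM in neutrophils and at 666, 695 and 750.5 CPM in TECs (log2 difference 0.19, SE 0.47, adjusted p = 0.819), and Bad at 115, 15 and 91.4 CPM in neutrophils and at 62.6, 52.8 and 23.4 CPM in TECs (log2 difference 0.67, SE 0.85, adjusted p = 0.632); neither passed. In all, 2 of 19 tested genes of this list were higher in neutrophils and 3 in TECs by the 8-fold rule, 10.5% and 15.8% against 7.53% and 22.6% of all tested genes, and 2 and 5 of 20 without PMN-544. Of the 3 in TECs, 2 were at 0 in every neutrophil library and called through the filter alone.

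**Figure D4:**
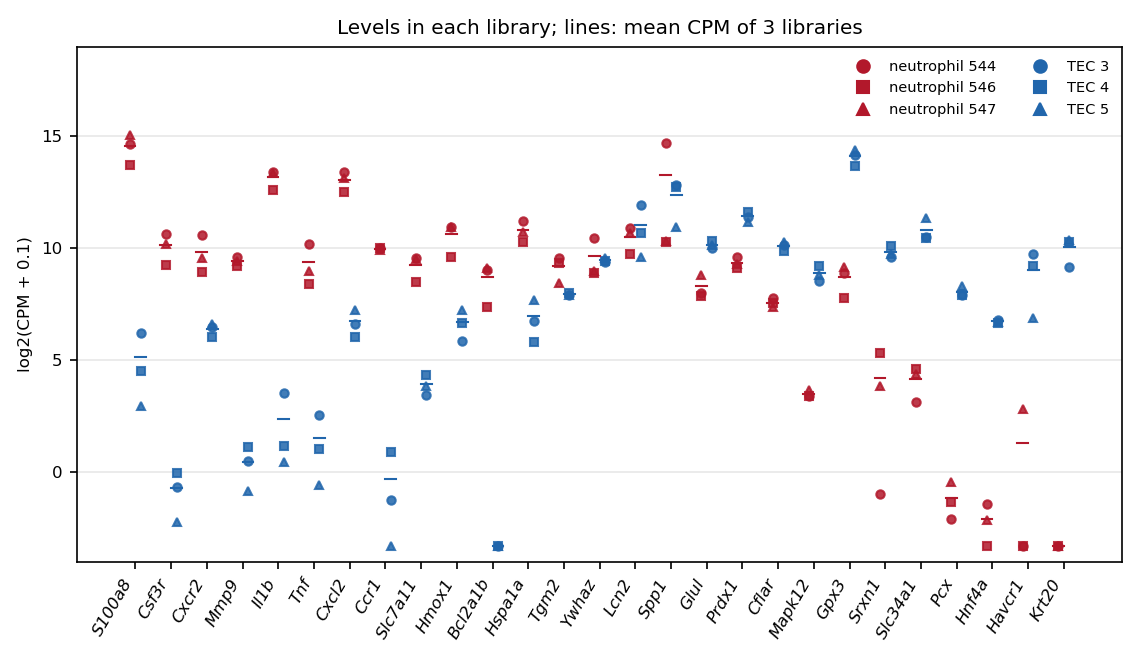
Level of named genes in each library as log2(CPM + 0.1), with 1 symbol per library (red, neutrophils; blue, TECs) and a line at the mean CPM of 3 libraries. Il1b and S100a8 keep all neutrophil symbols above all TEC symbols, Gpx3 keeps all TEC symbols above, and the symbols of Lcn2 overlap.

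Immediate early genes, which respond within minutes to stress and to cell isolation, were higher in neutrophils in 5 of 15 cases by the 8-fold rule, 33.3% against 7.53% of all tested genes, and in none in TECs. Dusp1, a phosphatase of MAP kinases, was at 5727, 5262 and 6447 CPM in neutrophils and at 124, 160 and 128 CPM in TECs (log2 difference 5.40, SE 0.23, adjusted p = 0.000679), and Fos at 2487, 1968 and 3037 CPM in neutrophils and at 423, 432 and 323 CPM in TECs (log2 difference 2.67, SE 0.26, adjusted p = 0.00228). Few genes of the housekeeping machinery met the rule. Of 39 tested cytosolic ribosomal proteins, 3 were higher in TECs by the 8-fold rule, 7.69% against 22.6% of all tested genes, with a median log2 difference of -1.18. One of the 3, Rpl5, fell below 8-fold when summed with its copies, and without PMN-544 the count was 5. At any size, 20 of the 39 had an adjusted p below 0.05 and were higher in TECs, and 2 in neutrophils. Of 25 tested proteasome genes, 1 was higher in each cell type by the rule, 4% each against 7.53% and 22.6% of all tested genes. At any size, 7 of the 25 passed as higher in neutrophils and 1 in TECs. No gene of these 2 lists was at 0 in every neutrophil library, unlike many behind the 22.6%. Mki67, which marks dividing cells, was at 171, 21.5 and 18.7 CPM in neutrophils and at 0.969, 0.689 and 0.454 CPM in TECs (log2 difference 6.62, SE 1.35, adjusted p = 0.0101). It did not pass in the glutamine libraries (log2 difference 3.46, adjusted p = 0.354) or without TEC library 4 or 5 (adjusted p = 0.0507 and 0.0513), and DESeq2 gave it no adjusted p. Of 13 tested proliferation genes it was the only one higher in neutrophils by the rule, and 3 were higher in TECs, 7.69% and 23.1% against 7.53% and 22.6% of all tested genes. At 0 in every neutrophil library was 1 of the 3. Without PMN-544 the count in TECs was 5.

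Many calls on the neutrophil side rested on the test used. With limma-voom, the count higher in neutrophils was 7 in place of 16 for neutrophil markers, 4 in place of 10 for monocyte and macrophage markers, 4 in place of 8 for granule genes and 6 in place of 14 for genes of interleukin-1, TNF and NF-kB feedback. The counts were 6 in place of 12 for pattern recognition receptors and also for Fc receptors and their kinases, 7 in place of 13 for the actin machinery, 5 in place of 9 for adhesion molecules, 3 in place of 9 for chemokines, and 1 in place of 7, 6 and 5 for antigen presentation, interferon-stimulated and immediate early genes. They were 4 in place of 7 for glycolysis and also for caspases, 3 in place of 5 for the BCL2 family, and 0 in place of 2 for the lists of dismutases and NRF2 targets, of the ASK1 cascade and of amino acid transporters. On the TEC side, 11 proximal tubule markers by either test, 17 in place of 18 proximal tubule transporters and 15 in place of 16 junction and keratin genes were counted, whereas collecting duct markers went from 8 to 5 and amino acid transporters from 3 to 1. Of the named genes that met the 8-fold rule, 32 did not with limma-voom, each with the same sign and a difference still beyond 8-fold. The smallest of these was that of Cxcr2, a log2 difference of 3.23. Over all genes counted, 869 of 909 in neutrophils and 2730 of 2733 in TECs stayed beyond 8-fold on the same side. Most lost calls were thus lost on the adjusted p. On the neutrophil side, 25 were lost: Acadvl, Bax, C1qa, Ccl3, Cd14, Cd74, Csf1r, Cxcl2, Cxcr2, Ftl1, Gpx4, Hmox1, Hspa1a, Ifitm6, Il10, Il1b, Il1r2, Itgam, Mmp8, S100a8, S100a9, Selplg, Slc7a11, Tnf and Vcam1. On the TEC side, 7 were lost: Bcl2, Cxcl12, Gpx3, Ifit2, Nox4, Pck1 and Slc34a1. S100a8 had a log2 difference of 9.89 and an adjusted p = 0.884 with limma-voom, and Il1b one of 11.21 and an adjusted p = 0.814.

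Several large differences lay in genes whose transcripts share sequence with a copy elsewhere, where estimated counts can go to either gene. Of 694 genes of the lists and of those named that had annotated transcripts, 307 met the 8-fold rule, and 31 of these shared at least 20% of their 50-base stretches with another gene. Summing the gene with its copies left 25 beyond 8-fold and brought 6 below it. Eno1, enolase, had means of 1606 CPM in neutrophils and 13.2 CPM in TECs, and Eno1b, its near-identical copy, 46.2 and 620.8 CPM. Together they gave 1653 and 634 CPM, a log2 ratio of 1.38. Gpx4, the glutathione peroxidase that protects membrane lipids, had means of 401.6 and 2.79 CPM and its pseudogene Gpx4-ps2 31.2 and 755.7 CPM, together 432.8 and 758.5 CPM, a log2 ratio of -0.81. Ftl1, the ferritin light chain, went from a log2 ratio of 3.41 to 1.72 with its copies. The other 3 were Hist2h2aa1, Oaz1-ps and Rpl5. Bcl2a1b and Hspa1a stayed beyond 8-fold with their copies, at log2 ratios of 11.44 and 3.66. These sums were chosen after the data were seen and carry no test.

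**Figure D5:**
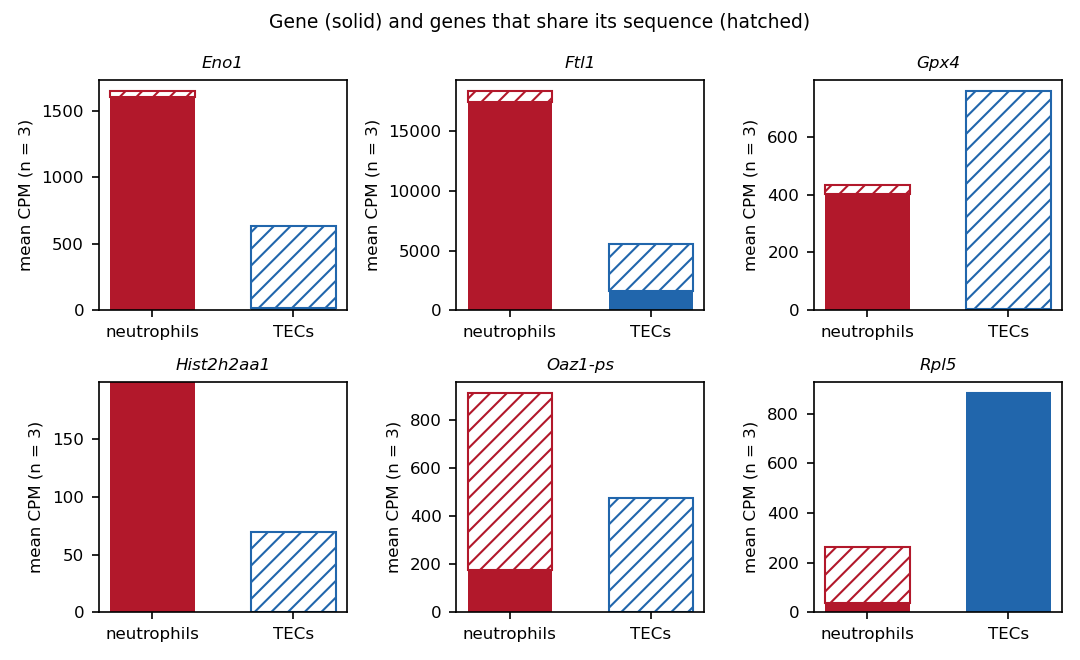
Mean level (n = 3 libraries) in CPM of 6 genes (solid) stacked with the genes that share at least 20% of their sequence (hatched), in neutrophils (red) and TECs (blue). For Eno1, Gpx4, Hist2h2aa1 and Oaz1-ps the TEC bar is nearly all hatched, and for Gpx4 the summed bars stand at 432.8 and 758.5 CPM.

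The glutamine-treated libraries, 3 of each cell type and other samples than those above, gave the same comparison a second time. With them, 1077 genes were higher in neutrophils and 3130 in TECs by the 8-fold rule. Of the genes counted in vehicle libraries, 729 of 909 were shared, 80.2% of the vehicle and 67.7% of the glutamine set, and in TECs 1680 of 2733 were shared, 61.5% and 53.7%. A large difference in the opposite direction was found for 4 of the neutrophil genes and 3 of the TEC genes. Among those tested in the glutamine libraries, 868 of 876 neutrophil genes and 2232 of 2510 TEC genes kept their sign. Beyond 8-fold on the same side were 784 and 1864 of these. All 16 neutrophil markers again met the rule in neutrophils, as did 14 proximal tubule markers in TECs, while 7 endothelial markers were higher in TECs. Both sets of libraries come from the same tables, so that cell type and run cannot be told apart here either.

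Beyond these lists, genes with the largest differences were named by rule. In neutrophils they included Themis2, a signalling protein of myeloid cells, at 700, 363 and 737 CPM in neutrophils and at 0 in every TEC library, at least 1870-fold higher, and Gpr65, a receptor that senses protons, at 322, 105 and 554 CPM in neutrophils and at 0 in every TEC library, at least 1020-fold higher. Havcr2, which encodes TIM-3, a family member of KIM-1, was at 42.8, 197 and 319 CPM in neutrophils and at 0 in every TEC library, at least 583-fold higher. In TECs they included Hoga1, a mitochondrial enzyme of hydroxyproline breakdown, at 0 in every neutrophil library and at 201, 223 and 221 CPM in TECs, at least 1190-fold higher, and Tmprss2, a serine protease of epithelia, at 0 in every neutrophil library and at 132, 126 and 175 CPM in TECs, at least 805-fold higher. Camk2n1, an inhibitor of the kinase CaMKII, was at 0 in every neutrophil library and at 339, 418 and 283 CPM in TECs, at least 1920-fold higher. Each of these genes was at 0 in every library of the other cell type, so that its selection and the filter fixed its call.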

How the data were processed

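RNA was measured in 12 libraries, of which the 6 vehicle libraries were analysed, 3 of neutrophils and 3 of TECs. The values the authors deposited are estimated counts for each gene symbol, without normalization, in 1 table for each cell type. Per the labels, all cells were sorted, RNA was converted from poly(A) tails to cDNA, and single-end reads were mapped to mm10; the submitters' processing notes name Salmon 1.0.0, Trim Galore 0.6.4, FastQC, MultiQC and DESeq2. Estimated counts assign reads that fit several transcripts by a model, so that near-identical genes can exchange counts.

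The deposited neutrophil table holds other than plain numbers, as a spreadsheet program had resaved it: 3.2% of cells carried extra points and 0.391% were dates. Of several points the last was taken for the decimal one, and dates and 12 septin symbols were decoded, with an uncertain second decimal in dates. Each neutrophil library has 2 columns that agreed at r of 0.997 to 0.998, and their mean was used as 1 replicate. The design had assumed plain counts for this table; it was used as estimated counts instead.

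Tables were joined by symbol (50433 shared), 29120 predicted, unnamed or sensory receptor genes were left out, and counts were rounded. Genes were tested with edgeR 4.0.16 (R 4.3.3; TMM, default low-count filter, quasi-likelihood test) with Benjamini-Hochberg adjustment over 12074 genes, and the SE was taken from the log2 difference and the F statistic. The test was tried on simulated counts first. Alternatives used DESeq2 1.42.0, limma 3.58.1 (voom), other scalings, filters and thresholds, single columns, the glutamine libraries, and each library left out in turn. The smallest p of an exact permutation test of 3 libraries against 3 is 0.1.

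Gene lists (47) and members were chosen with earlier results of these data known. Genes named were the 15 with the largest log2 difference in each direction at a mean of 100 CPM or more, the 5 with the highest mean, the 4 highest members of each list and up to 3 against its median, and genes the study follows; some genes of these lists are not reported here. Asns, Bax, Casp1, Cd3e, Coro1a, Csf3r, Cxcr4, Elane, Eno1b, Fpr1, Gclc, Gpx4-ps2, Ltf, Ly6g, Miox, Mmp9, Mpo, Ngp, Rpl5, Slc22a6, Slc22a8 and Sod2 lie outside this rule and were chosen after their values were seen. Promoter windows came from RefSeq (GRCm38.p6), matched by symbol for 9469 of the 12074 tested genes, and shared sequence from GENCODE M21 transcripts on GRCm38.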

Additional observations from a re-analysis of the deposited data

How the results depend on the processing

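The counts of large differences depended on the test and the filter. With limma-voom, 410 genes in place of 909 were higher in neutrophils by the 8-fold rule and 2798 in place of 4457 passed the adjusted p. With at least 10 counts required in every library, which leaves 4810 genes and drops those at 0 in a cell type, the counts were 453 in neutrophils, 273 in TECs and 1804 past the adjusted p, and neutrophil genes made up 62.4% of the large calls. DESeq2 gave 1042 and 3262 large differences and the other scalings, filters and thresholds stayed within 1.5 times. The median log2 difference of all genes, -0.41, shifted by -0.44 with upper-quartile factors, -0.53 with library totals alone, -2.06 with limma-voom, -0.76 without the filter, 0.72 under the minimum of 10 counts, and -0.62 to -0.01 with a library left out, the first without PMN-546. Leaving out each library in turn gave 710 to 1052 genes in neutrophils, 2450 to 4009 in TECs and 3447 to 6220 past the adjusted p; the lone pair of libraries left in a group shares its spread with the other group.

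Of the 117 tested genes named, 83 met the 8-fold rule, and 82 of these did with DESeq2, which gave Mki67 no adjusted p, 51 with limma-voom, 80 with upper-quartile factors, 75 in the glutamine libraries and 74 to 83 with a library left out. No direction that passed a test turned under another setting of the same libraries. In the glutamine libraries the log2 difference was 2.80 for Ifit2, -12.23 for Kdr (at 0 in every glutamine neutrophil library), -6.12 for Slc12a3 and -1.24 for Spp1, each with a sign opposite to that in the vehicle libraries. With each library left out in turn, Kdr ranged from -12.37, a fitted value over 2 neutrophil libraries at 0 and not a measured fold, to 2.57, Slc12a3 from -4.30 to 1.10, Spp1 from -2.04 to 1.39 and Ifit2 from -6.96 to -3.54. Without PMN-546, the 2 remaining neutrophil libraries were also at 0 for Ifit2, and a fitted value there is no measured fold. The bound was then 6.69-fold higher in TECs. The sign turned for 5 named genes when 1 library was left out: Kdr without PMN-546, Slc12a3, Spp1 and Ywhaz (-0.49) without PMN-544, and Lcn2 (0.33) without TEC library 3, of which Kdr alone passed the test there. With upper-quartile factors or library totals alone, the signs of Gsr, Slc12a3, Txn1 and Ywhaz, none of which passed, turned in at least 1 of these scalings. No paired analysis was possible because the vehicle groups of the 2 cell types share no replicate number. Depth limits low genes: 3 counts are up to 0.204 CPM in neutrophils and 0.341 CPM in TECs.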
